A study of Mus musculus with 24 samples.

Results

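Triple knockout (TKO) embryonic stem cells, which carry edits in Tet1, Tet2 and Tet3, were compared with wild-type (WT) cells while both were still undifferentiated (D0, before LIF was withdrawn). The comparison took the 2 TKO libraries, 1 from clone TKO_8.4 and 1 from clone TKO_8.12, and the 3 WT libraries, from clones O4.1, O4.2 and O4.13, which is 5 of the 24 libraries of the series. All cells descend from 1 parental clone of a 129/SVj mouse line that carries eGFP at Pou5f1, and all were grown on gelatin without feeders in medium with serum and LIF. The other D0 libraries came from 3 Tet1-/-, 2 Tet2-/- and 2 Tet1-/-:Tet2-/- (DKO) clones. Libraries were also made after 6 days without LIF (D6), where the TKO and WT clones carry the same names as at D0 and one Tet1-/- clone does not. Each clone gave 1 library per day, so the p-values below measure the spread between clones, and a genotype with 2 clones is represented by 2 edited lines only.

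Tet1, Tet2 and Tet3 encode dioxygenases that oxidise methylcytosine in DNA to hydroxymethylcytosine and further products, which opens a route back to unmethylated cytosine. Tet1 and Tet2 are the family members made in mouse embryonic stem cells, while Tet3 is best known from the oocyte and zygote. Genes that rest on promoter methylation for silencing, among them many germline genes, are a class on which TET activity is often studied.

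The edits are shown first because the transcript counts cannot see them: a gene total covers the whole message, edited or not. The guide windows below run 5′ to 3′ on the minus strand, the coding strand of all 3 genes, with the PAM in capitals. The Tet1 window lay at chr10:62296283-62296317 of mm9, in exon 5 of the 13 exons of transcript Tet1-001, and its last 3 bases ran past that exon. The Tet2 window lay at chr3:133148610-133148641, wholly coding, in exon 1 of the 10 exons of Tet2-201. The Tet3 window lay at chr6:83329882-83329910, wholly coding, in exon 5 of the 11 exons of Tet3-001.
Tet1 window: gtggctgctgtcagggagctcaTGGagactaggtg
Tet2 window: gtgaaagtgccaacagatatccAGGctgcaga
Tet3 window: ggcaaggaggggaagagttctcgAGGctg

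The Tet1 alleles listed for the 2 TKO clones follow, since they differ in kind. In these lines capitals mark substituted bases, not a PAM.
TKO clone 1, Tet1 allele 1: gtggctgctgtcaTggagACTaggtg
TKO clone 1, Tet1 allele 2: gtggctgccatggagactaggtg
TKO clone 2, Tet1 allele 1: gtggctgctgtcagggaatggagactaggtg
TKO clone 2, Tet1 allele 2: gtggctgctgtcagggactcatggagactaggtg
Clone 1 lost 9 bases on one Tet1 allele, which also carried G14T, C19A, T20C and C21T counted from the 5′ end of the window, and 12 bases on the other. Both of its Tet1 deletions are multiples of 3. Clone 2 lost 4 and 1 bases at Tet1, neither a multiple of 3. At Tet2, clone 1 lost 18 bases on one allele and 1 base on the other, and clone 2 lost 8 and 1. At Tet3 a single allele was listed for each clone, with 2 bases lost in clone 1 and 16 in clone 2. A second Tet3 allele with an indel too large to amplify was not excluded by the study. The study reported loss of protein in its edited lines by Western blot and showed a representative blot for Tet1 and Tet2. The sample labels number clone TKO_8.4 as the first TKO clone and clone TKO_8.12 as the second, but the sources used here do not state that the allele list follows the same numbers.

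The 2 clones differed at the edited genes, and since the counts do not see the edits these levels are no check of the labels. Levels here are CPM, counts scaled to the library total after correction by the trimmed mean of M-values (TMM), and the test was edgeR's quasi-likelihood test over all genes with Benjamini-Hochberg adjustment. The level of Tet1 was 538 CPM in clone TKO_8.4 and 39.5 CPM in clone TKO_8.12, against 408, 209.5 and 349 CPM in WT O4.1, O4.2 and O4.13. Clone TKO_8.4 was thus the highest of the 5 libraries and clone TKO_8.12 the lowest, and the genotype as a whole showed a log2 fold change of -0.16 ± 0.76 (SE, adjusted p = 0.92). Taken alone, clone TKO_8.12 fell at Tet1 (log2 fold change -3.03 ± 0.64, adjusted p = 0.0031), while clone TKO_8.4 stood at 0.74 ± 0.49 (adjusted p = 0.32). The level of Tet2 was 40.3 and 7.72 CPM in clones TKO_8.4 and TKO_8.12, below the 88.9, 89.0 and 83.4 CPM of the WT clones. Tet2 fell in TKO by 1.86 on the log2 scale (SE 0.51, adjusted p = 0.043), and that call was lost when any 1 WT library was left out. The level of Tet3 was low throughout, 4.197 and 2.69 CPM in TKO and 4.78, 7.55 and 5.74 CPM in WT. Its difference (log2 fold change -0.81 ± 0.23, adjusted p = 0.048) stayed under the 2-fold limit used for calls. Without TKO_8.4 the Tet3 log2 fold change was -1.16, past 2-fold.

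**Figure D1:**
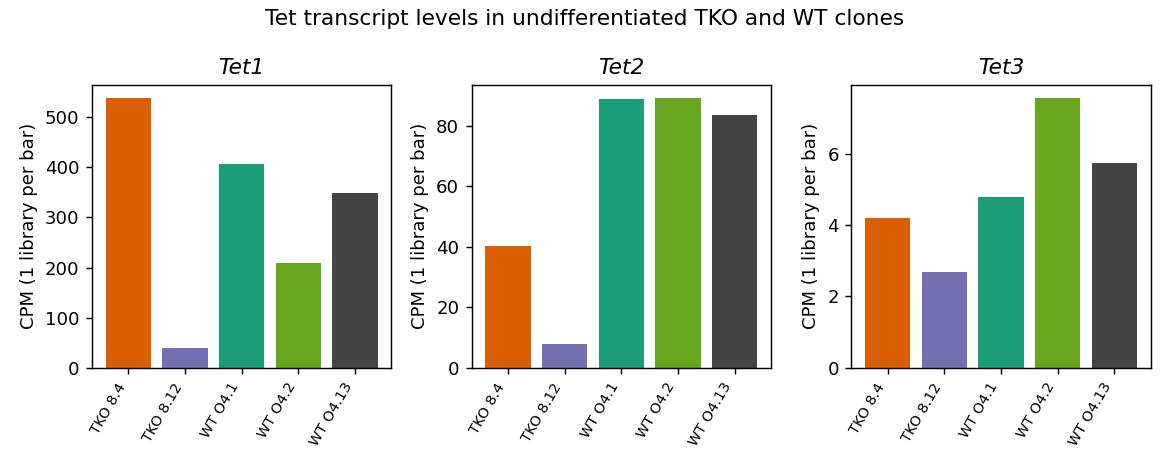
Levels of Tet1, Tet2 and Tet3 in CPM (y axes, starting at 0), with 1 bar for each of the 5 D0 libraries. Tet1 was highest in TKO clone TKO_8.4 (538 CPM) and lowest in clone TKO_8.12 (39.5 CPM), and both clones lay below WT at Tet2.

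A gene was called when its adjusted p was below 0.05 and its change exceeded 2-fold. Of 14456 genes tested, 149 were called higher in TKO (1.03%) and 306 lower (2.12%). Both TKO libraries lay below all 3 WT libraries at all 306 genes called lower, and 2516 of all genes tested (17.4%) had that order. Both lay above all 3 WT libraries at 145 of the 149 genes called higher and at 2382 of all genes (16.5%). The spread in this test was shared over the 12 D0 libraries and 5 genotypes. Fitted on the 5 TKO and WT libraries alone, with 2 clones that differed widely, the test called 1 gene higher and 2 lower, while 200 and 471 genes passed 2-fold with an unadjusted p under 0.05. The calls therefore rest on taking the spread of the other genotypes as that of TKO. Without WT O4.13 the counts were 58 higher and 168 lower, and without WT O4.2 they were 90 and 225.

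The 3 genes that passed in both fits were picked out after their values were seen. Epha4, an ephrin receptor kinase, stood at 226 and 184 CPM in clones TKO_8.4 and TKO_8.12 and at 39.1, 55.9 and 52.2 CPM in the WT clones. It rose in TKO by 2.06 ± 0.14 (log2, SE, adjusted p = 5.7e-05). The Accsl level was 4.51 and 3.51 CPM in TKO and between 23.6 and 32.7 CPM in WT, a fall of 2.74 on the log2 scale (SE 0.20, adjusted p = 5.7e-05). Pdcl2, a phosducin-like gene known from male germ cells, fell from 9.33, 7.82 and 10.1 CPM in WT to 1.31 and 0.975 CPM (log2 fold change -2.99 ± 0.23, adjusted p = 8.3e-05). At each of these 3 genes the 2 TKO clones lay close together and the groups did not overlap.

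The genes called lower were mostly of low level in WT. Their median WT mean was 3.49 CPM, 56 of the 306 averaged under 1 CPM in WT, and 38 averaged at least 20 CPM. The median change of the 306 was 1.61 in absolute log2 value.

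The 10 genes called lower with the largest changes were taken from those averaging at least 1 CPM in WT or TKO and with both TKO clones below all WT clones. The 3 with the highest WT levels come first, of which Rpl39l is also in the germline list described below. Rpl39l, a copy of a ribosomal protein gene used in spermatogenic cells, stood at 15.8 and 3.90 CPM in clones TKO_8.4 and TKO_8.12, against 97.0, 97.2 and 128 CPM in WT. Its log2 fold change was -3.44 ± 0.41 (adjusted p = 0.0014). D1Pas1, a testis DEAD-box helicase gene related to Ddx3x, stood at 9.98 and 4.76 CPM in TKO and 57.8, 69.1 and 62.3 CPM in WT (log2 fold change -3.10 ± 0.26, adjusted p = 0.00013). Sohlh2, a transcription factor gene of early germ cell differentiation, stood at 19.6 and 7.02 CPM in TKO and 93.9, 113 and 127 CPM in WT (log2 fold change -3.07 ± 0.33, adjusted p = 0.00074). At all 3 genes the higher TKO clone, TKO_8.4, remained more than 4-fold below the lowest WT clone, and clone TKO_8.12 lay lower still. Rpl39l and D1Pas1 have near copies elsewhere in the genome, so how the authors' counting split shared reads bears on their levels.

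The other 7 of the 10 had lower levels. Pkhd1, which encodes a protein of the primary cilium, fell by 3.18 on the log2 scale, from 2.103, 3.72 and 2.87 CPM in WT to 0.436 and 0.195 CPM. Spink3, a secreted protease inhibitor gene, fell by 2.97, from between 2.103 and 3.95 CPM to 0.238 and 0.585 CPM. Pdcl2 is described above. Tmprss13, Fxyd2, Rgs9 and Zscan4a fell by 2.98 to 3.90 with WT levels of 0.535 to 1.83 CPM, and clone TKO_8.12 held no count of Fxyd2.

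The 10 genes called higher with the largest changes, of those averaging at least 1 CPM in WT or TKO and with both TKO clones above all WT clones, were all at or under 6.38 CPM. Fgfbp1 was called with a larger change than 8 of them but is left out by that condition, since TKO_8.4 lay within WT, and its call was lost when any 1 WT library was left out (adjusted p 0.10 to 0.12). Bcl11a, a zinc finger repressor gene, stood at 2.97 and 1.05 CPM in TKO and 0.268, 0.0391 and 0.328 CPM in WT (log2 fold change 3.23 ± 0.62, adjusted p = 0.011). It was higher in both clones. For 5 of the 10 the rise was carried by clone TKO_8.12: Slc25a34 (5.15 CPM, with 0.871 in clone TKO_8.4), Egr4, Tmem173, Exoc3l4 and Ngb. For Rgs20 and Tnfaip8l3 it was carried by clone TKO_8.4, at 6.38 and 2.65 CPM, with 1.36 and 0.468 CPM in clone TKO_8.12. The calls of Egr4, Tmem173, Ngb and Tnfaip8l3 were lost when any 1 WT library was left out (adjusted p 0.054 to 0.11), and those of Rgs20 and Exoc3l4 without WT O4.2 or O4.13 (0.055 to 0.080). Each of these 7 calls was also lost without the clone that carried the rise. In Cd200 and Gfap both clones passed the test on their own, but Gfap in clone TKO_8.4 did not without any 1 WT library (0.054 to 0.083). Without WT O4.13 the call of Cd200 was lost in TKO (0.058) and in clone TKO_8.4 (0.072).

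**Figure D2:**
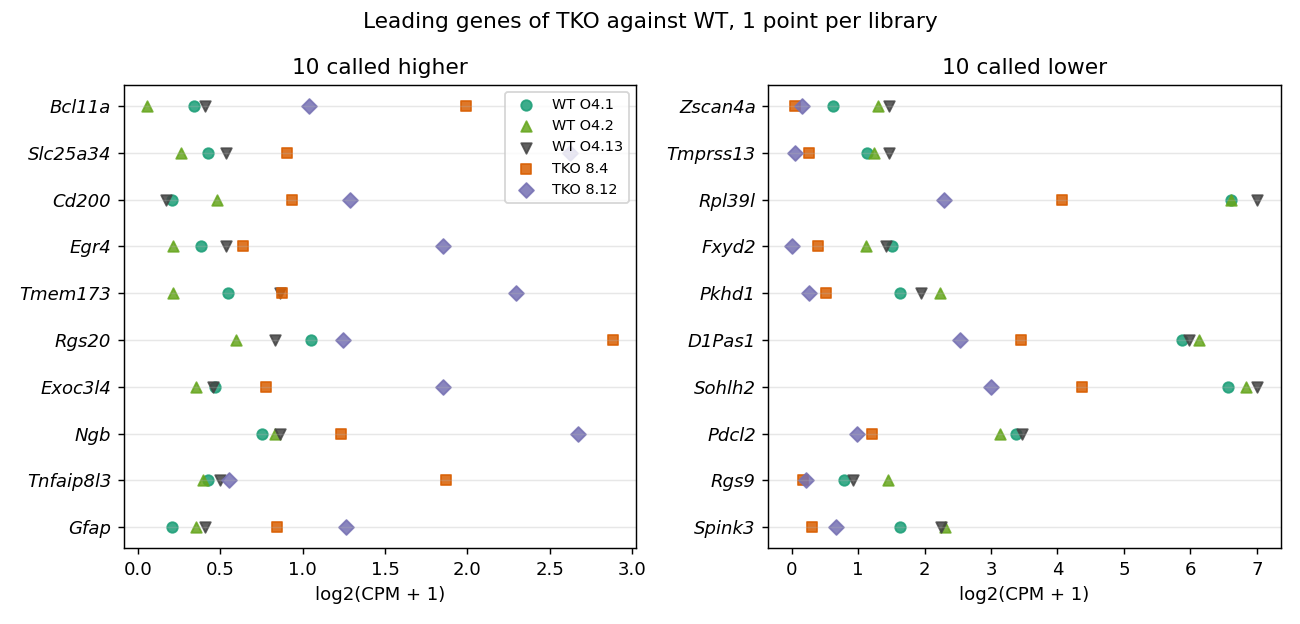
Level on the log2(CPM + 1) scale (x axis) of the 10 genes called higher (left) and the 10 called lower (right) with the largest changes in TKO against WT, with 1 point per library. Both TKO clones sit outside the WT range at all 20 genes, as the choice of genes required, and among the genes called higher the 2 clones often lie far apart.

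The germline list had a larger share called lower than all genes. The 2-cell-like list had more (66.7%), and the Rhox list had the same share, as 1 gene of 5. Lists and members were chosen with earlier results of these data known. Counts over them, here and by promoter motif below, therefore describe the lists and test nothing. The list held 32 genes known to be methylated and silent in somatic cells, of which 30 were tested. In TKO edgeR called 6 lower (20% of them) and DESeq2 called 8, neither called any higher, and 15 of the 30 had an unadjusted p under 0.05 in edgeR. These counts stand beside 2.12% and 1.03% of all genes, and the list's median log2 fold change was -0.56 beside 0.02 for all genes. Clone TKO_8.4 had 12 of 30 called lower (40.0%) and clone TKO_8.12 had 6 (20%), with Stra8 and Brdt called higher in the latter, beside 3.42% and 4.65% of all genes in those clones. The summed level of the list was 236.1 and 331.3 CPM in clones TKO_8.4 and TKO_8.12 and 539.8, 678.0 and 632.3 CPM in the WT clones. Besides Rpl39l, 5 genes were called. Rpl10l, another ribosomal protein copy, fell to 23.0 and 50.8 CPM from 119, 176 and 166 CPM (log2 fold change -2.06 ± 0.27, adjusted p = 0.0023). Hsf2bp, a meiotic recombination gene, fell to 31.0 and 32.8 CPM from 90.4, 86.2 and 70.2 CPM (-1.37 ± 0.12 in log2, adjusted p = 0.00019). Smc1b, the meiotic cohesin subunit, stood at 1.39 and 1.44 CPM against 5.35, 6.96 and 3.48 CPM. Dazl, an RNA-binding germ cell gene, stood at 6.38 and 6.98 CPM against 11.2, 26.2 and 16.4 CPM. Piwil2, of the piRNA pathway, stood at 15.7 and 13.2 CPM against 27.3, 33.7 and 31.5 CPM, and its change was under 2-fold without TKO_8.12 (-0.97 in log2). The groups did not overlap at any of these genes, an order that all 306 genes called lower had. Other members did not pass: Ddx4, the germ cell helicase, was at 21.1 and 33.6 CPM in TKO and 26.6 to 34.3 CPM in WT, and Mael, also of the piRNA pathway, was called lower in clone TKO_8.4 (3.92 CPM) but not in clone TKO_8.12 (12.01 CPM).

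The promoters of 4 of the genes that fell are shown because methylation acts on CpG sites there. The study measured DNA methylation of these D0 genotypes by reduced representation bisulfite sequencing. It reported that methylation differences at promoters did not track those of transcripts. Methylation was not tested here. Each is the 250 bases before the start of the gene in the RefSeq table for GRCm38.p6, a later build than that of the counts, with every CG in capitals. Rpl39l lies at chr16:10169978-10170227 (plus strand), Sohlh2 at chr3:55181794-55182043 (plus), D1Pas1 at chr1:186967166-186967415 (plus) and Rpl10l at chr12:66284402-66284651 (minus).
Rpl39l: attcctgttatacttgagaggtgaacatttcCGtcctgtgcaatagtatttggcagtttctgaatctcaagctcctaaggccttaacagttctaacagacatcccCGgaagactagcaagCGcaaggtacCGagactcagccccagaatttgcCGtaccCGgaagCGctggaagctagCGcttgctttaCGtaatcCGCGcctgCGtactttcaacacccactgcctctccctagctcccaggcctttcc
Sohlh2: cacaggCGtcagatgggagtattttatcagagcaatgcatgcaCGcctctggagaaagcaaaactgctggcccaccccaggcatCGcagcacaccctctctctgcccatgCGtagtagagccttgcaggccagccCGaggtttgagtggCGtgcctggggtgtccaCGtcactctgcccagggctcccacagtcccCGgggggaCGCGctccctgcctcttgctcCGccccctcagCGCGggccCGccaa
D1Pas1: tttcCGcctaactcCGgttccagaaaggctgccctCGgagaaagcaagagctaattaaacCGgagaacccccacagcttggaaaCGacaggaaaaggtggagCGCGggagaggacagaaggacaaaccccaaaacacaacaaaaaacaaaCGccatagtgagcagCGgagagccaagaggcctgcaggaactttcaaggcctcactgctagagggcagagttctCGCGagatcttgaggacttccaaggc
Rpl10l: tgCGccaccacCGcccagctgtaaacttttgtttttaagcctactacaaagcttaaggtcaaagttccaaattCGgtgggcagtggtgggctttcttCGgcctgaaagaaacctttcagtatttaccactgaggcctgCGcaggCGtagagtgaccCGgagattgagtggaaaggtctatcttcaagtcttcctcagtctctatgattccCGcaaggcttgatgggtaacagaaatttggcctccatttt
These windows hold 12, 14, 11 and 8 CG pairs in the order shown. Over the full 300 bases of the table, 29 of the 32 germline genes had an entry, with a median of 19 CG pairs, while the 27025 promoters of the table had a median of 7. The genes tested with a WT mean of at least 20 CPM, 81.4% of which had an entry, had a median of 23, so the germline promoters were not richer in CG pairs than those of well expressed genes. The E-box CACGTG, which reads the same on both strands, occurred in 12 of the 29 (41.4%) in 7.24% of all promoters and in 11.6% of those of the well expressed genes. None of the 12 genes with that motif was called lower in TKO, and 5 of the 15 tested genes without it were (edgeR). By clone the split was less clean: 3 of the 12 and 8 of the 15 were called lower in clone TKO_8.4, and 0 and 5 in clone TKO_8.12. For the genes called lower as a whole, 72.9% had an entry in the table, too few for such a check, which is void for them.

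Genes of the 2-cell-like state, a rare transient condition of cultured stem cells, had low counts in all libraries. Of 15 tested, 10 were called lower in TKO (66.7%) and none higher by edgeR (median log2 fold change -2.39, or -2.06 with 2 genes that had no count in TKO set to their bound), beside 2.12% lower and 1.03% higher of all genes, and DESeq2 called 11 lower. The summed level of the list was 2.49 and 2.97 CPM in clones TKO_8.4 and TKO_8.12 and 7.65, 12.99 and 17.6 CPM in WT, so WT itself spanned more than 2-fold. Zscan4d, of a gene family used in telomere maintenance, stood at 0.356 and 0.039 CPM against 0.917, 1.09 and 1.80 CPM. No read was counted for Zscan4b in either TKO library, where WT had 10 to 13, which makes it at least 3.77-fold lower at a floor of 3 counts a library. The count of 10 became 2 without WT O4.13, 5 without WT O4.2 and 0 in the fit of the 5 libraries. The Zscan4 and Usp17l genes of this list are near-identical copies within their families, so their reads may be split or shared. Other members, such as Tmem92, are not of these families.

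**Figure D3:**
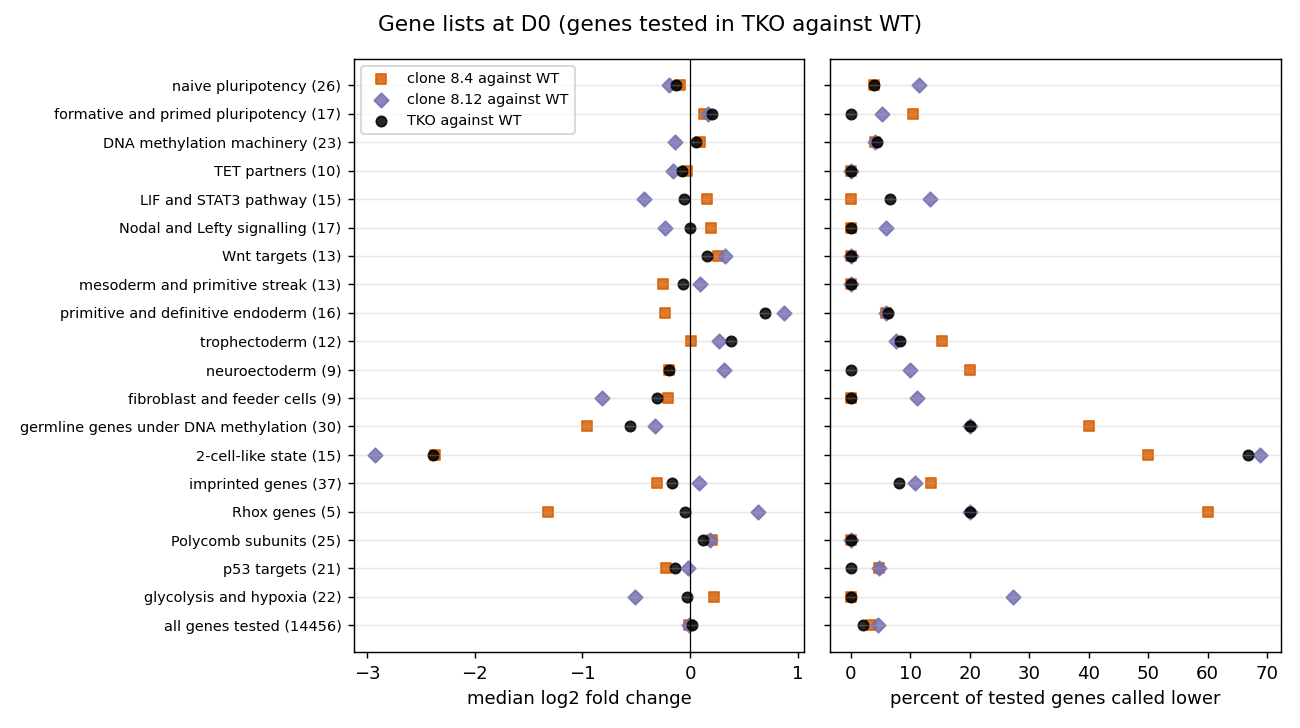
Median log2 fold change against WT (left x axis) and percent of tested genes called lower (right x axis) for the gene lists drawn, at D0, with squares for clone TKO_8.4, diamonds for clone TKO_8.12 and circles for both together. The 2-cell-like list (median -2.39, 66.7% called lower) and the germline list (-0.56, 20%) stand left of all genes tested (0.02, 2.12%). The lists of the Y chromosome, beta protocadherins and abundant RNA are not drawn. The Y chromosome list had a median of -1.98 and 0 called, with 4 genes tested and WT O4.2 far above the other libraries. The 20% of the Rhox list is 1 gene of 5.

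Of 26 naive pluripotency genes, 1 was called in TKO by edgeR and by DESeq2, Tet2 itself (3.85% lower, near the 2.12% of all genes), and 10 had an unadjusted p under 0.05 in edgeR. Both TKO clones lay below all WT clones at 8 of the 26, an order held by 17.4% of all genes. The list summed to 9057 and 8511 CPM in clones TKO_8.4 and TKO_8.12 and 8978 to 9290 CPM in WT. Pou5f1, which encodes Oct4, was at 710 and 564 CPM in TKO and 810, 659 and 805 CPM in WT (log2 fold change -0.25 ± 0.12, adjusted p = 0.20). Nanog was at 513 and 516 CPM against 656, 745 and 644 CPM (-0.41 ± 0.09 in log2, adjusted p = 0.021), a difference below 2-fold in which the groups did not overlap. Sall4 was at 264 and 299.7 CPM in TKO and 298, 248 and 299.4 CPM in WT, with a log2 fold change of 0.00 ± 0.10. The clones parted at some members: Klf4 was called higher in clone TKO_8.4 (549.7 CPM, WT 235.0 to 269.7), and Klf2 and Tfcp2l1 were called lower in clone TKO_8.12 (151 and 354 CPM, WT 310.2 to 361 and 718.5 to 775). Dppa3, a maternal factor gene also active in germ cells, was called higher in clone TKO_8.12 (8.82 CPM, log2 fold change 3.00, adjusted p = 0.00020), with 0.554 CPM in clone TKO_8.4 and 0.535 to 1.64 CPM in WT.

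Of 17 formative or primed genes tested, 2 rose (11.8%) and none fell in TKO by edgeR or DESeq2, beside 1.03% and 2.12% of all genes, and 9 had an unadjusted p under 0.05 in edgeR. Sall2 rose by 1.22 ± 0.22 (log2, adjusted p = 0.0094), from 9.06, 7.71 and 10.4 CPM in WT to 14.3 and 28.0 CPM, and without TKO_8.12 its change was under 2-fold (0.65). Sox3, a neural and epiblast transcription factor gene, rose to 2.85 and 7.72 CPM from 2.52, 1.64 and 2.13 CPM (adjusted p = 0.048), and in the fit by clone it was called in clone TKO_8.12 alone. The Sox3 call was lost without WT O4.1 (adjusted p = 0.071), O4.2 (0.14) or O4.13 (0.13) and without TKO_8.12 (0.39). Nes, the neural progenitor filament gene, was at 22.8 and 33.3 CPM against 9.44, 14.4 and 10.1 CPM and rose by 1.31 ± 0.25 (adjusted p = 0.010). Sox3 and Nes were the 2 called of 9 neuroectoderm genes tested (22.2%), of which 6 had a negative log2 fold change, with a list median of -0.20 and a summed level of 184.2 and 195.8 CPM in TKO inside the WT range of 150.5 to 228.4 CPM. In Nodal signalling edgeR called 1 of 17 genes, Foxh1, and DESeq2 also called Fst lower (adjusted p = 0.026). Foxh1, a partner of the Smad proteins, rose to 54.4 and 53.2 CPM from 34.6, 18.9 and 22.0 CPM. Eomes, of the primitive streak and trophectoderm, was at 20.2 CPM in clone TKO_8.4 and 7.92 CPM in clone TKO_8.12, against 6.04 to 7.002 CPM in WT. The Eomes call was lost without TKO_8.4 (adjusted p = 0.37) or any 1 WT library, and that of Foxh1 without WT O4.2, where its change was under 2-fold, or O4.13 (adjusted p = 0.058). Of the remaining factors the study follows, none of Lefty1, Cdx2 and T was called. Lefty1 was at 18.5 and 28.0 CPM within a WT range of 12.5 to 60.02 CPM, and Cdx2 and T were at or under 0.429 CPM in the 5 libraries, and Cdx2 was too low to be tested in TKO.

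Among genes of DNA methylation, 1 of 23 tested was called (4.35% lower), near the 2.12% of all genes. Dnmt3l, the catalytically inactive partner of the de novo methyltransferases, fell to 103 and 116 CPM from 249, 236 and 237 CPM (log2 fold change -1.14 ± 0.11, adjusted p = 0.00036). The WT clones averaged 240.9 ± 6.92 CPM (SD, n = 3), and both TKO clones lay more than 2-fold below that mean. Dnmt3a, a de novo methyltransferase gene, was at 152 CPM in clone TKO_8.4 and 415 CPM in clone TKO_8.12 against 195, 214 and 204 CPM, and was called higher in clone TKO_8.12 alone. Of 10 TET partners none was called in TKO by edgeR or DESeq2, with 5 at an unadjusted p under 0.05, and Sin3a, a corepressor subunit, was at 206 and 170.4 CPM against 266, 243 and 246 CPM (-0.42 ± 0.10 in log2, adjusted p = 0.030).

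Imprinted genes gave 3 of 37 called lower by edgeR (8.11%, beside 2.12% of all genes) and 4 by DESeq2. H19, the maternally expressed non-coding RNA, fell by 2.02 on the log2 scale to 0.832 and 0.663 CPM from 3.25, 3.40 and 2.46 CPM, and Ascl2 and Usp29 fell by 1.51 and 1.29. The Usp29 call was lost without WT O4.2 (adjusted p = 0.11), WT O4.13 (0.11) or TKO_8.4 (0.076). Hnf4a, an endoderm factor gene, fell to 0.871 and 0.312 CPM from 2.33, 5.125 and 2.66 CPM. It was the 1 of 16 endoderm genes called in TKO by edgeR, and DESeq2 called Hnf4a lower and Cubn higher. Of the 16, 11 had a positive log2 fold change (median 0.69), and 11 had an unadjusted p under 0.05 in edgeR. Icam1, counted with the LIF pathway, fell to 72.6 and 37.3 CPM from 121, 108 and 104 CPM, and was under 2-fold without TKO_8.12 (-0.61 in log2) or WT O4.1 (-0.95). Rhox13 fell by 1.71 and was the 1 of 5 Rhox genes called. Phf19, a Polycomb accessory gene, rose by 1.06 to 17.4 and 12.99 CPM from 6.51 to 7.98 CPM and was the 1 of 25 Polycomb genes called. Its change was under 2-fold without TKO_8.4 (0.84) or WT O4.13 (0.99). Of the 25 Polycomb genes, 12 had an unadjusted p under 0.05 in edgeR. Both TKO clones lay above all WT clones at 10 of the 25 and below them at 1, beside 16.5% and 17.4% of all genes. No p53 target of 21, no glycolysis or hypoxia gene of 22, no Wnt target of 13 and no fibroblast gene of 9 was called in TKO by edgeR. Of them 7, 1, 3 and 1 had an unadjusted p under 0.05. DESeq2 called 1 p53 target lower and none of the others. Of 4 Y chromosome genes tested none was called by edgeR or DESeq2, with 2 at an unadjusted p under 0.05. The Y genes set 1 WT clone apart: Ddx3y, an RNA helicase gene, was at 118.8 CPM in WT O4.2, 4.74 and 18.6 CPM in WT O4.1 and O4.13, and 10.7 and 5.81 CPM in TKO. Markers of feeder fibroblasts overlapped between genotypes, with a summed level of 442.8 and 251.9 CPM in TKO and 376.3 to 585.3 CPM in WT.

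Each clone set against WT on its own gave more calls than the pair. In that fit a lone library is assumed to vary like the other 4 genotypes. Clone TKO_8.4 had 345 genes higher (2.33%) and 507 lower (3.42%) of 14807 tested, and clone TKO_8.12 had 459 higher (3.1%) and 689 lower (4.65%). These comparisons share their WT libraries. Set directly against each other, clone TKO_8.12 had 591 genes higher (3.99%) and 716 lower (4.84%) than clone TKO_8.4. Over 10073 genes with a mean of at least 5 CPM, the log2 difference between the TKO clones had an SD of 0.529, and 607 genes lay more than 2-fold apart, while pairs of WT clones had SDs of 0.17 to 0.277 with 6 to 54 such genes. The biological coefficient of variation was 0.302 in TKO, 0.114 in WT and 0.0756 to 0.0932 in the other genotypes.

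The clones differed in which endoderm genes were called. Over the list, the median log2 fold change was 0.87 in clone TKO_8.12, with 13 genes positive and 4 negative. In clone TKO_8.4 it was -0.23, with 8 positive and 9 negative. Of 17 endoderm genes tested, 6 were called higher in clone TKO_8.12 (35.3%) and 3 in clone TKO_8.4 (17.6%), beside 3.1% and 2.33% of all genes. Gata6, a primitive endoderm regulator, was at 4.06 CPM in clone TKO_8.12, 0.238 CPM in clone TKO_8.4 and 0.306, 1.09 and 0.533 CPM in WT. Cubn, the endocytic receptor of visceral endoderm, was at 9.48 CPM in clone TKO_8.12 and 0.436 CPM in clone TKO_8.4, with WT between 0.535 and 1.09 CPM. Sox17, Dab2, Gata4 and Amn were the other 4 in clone TKO_8.12. In clone TKO_8.4 the 3 were Col4a1 and Col4a2, basement membrane collagen genes, and the chemokine receptor gene Cxcr4. Whether more cells of this type or more RNA per cell lay behind these levels cannot be told apart in bulk samples.

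Glycolysis genes parted the clones in the other direction. Of 22, 6 were called lower in clone TKO_8.12 (27.3%, beside 4.65% of all genes; median log2 fold change of the list -0.51), and in clone TKO_8.4 the single call, Ndrg1, was higher (median 0.22). The list summed to 15710 CPM in clone TKO_8.4, 10660 CPM in clone TKO_8.12 and 13440 to 14360 CPM in WT. Bnip3, a mitophagy receptor gene that responds to hypoxia, was at 29.9 CPM in clone TKO_8.4, 2.81 CPM in clone TKO_8.12 and 18.5 to 30.7 CPM in WT. The phosphofructokinase genes Pfkl and Pfkp were at 123 and 60.03 CPM in clone TKO_8.12, below WT ranges of 262 to 316 and 175 to 208 CPM, and at 366 and 172 CPM in clone TKO_8.4. Ndufa4l2, a hypoxia-induced mitochondrial gene, was at 11.4 CPM in clone TKO_8.4 and 0.078 CPM in clone TKO_8.12, on either side of the WT range of 3.93 to 6.27 CPM.

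Other genes set a single clone apart. Pou4f2, a neuronal POU factor gene, was at 102 CPM in clone TKO_8.4, 25.7 CPM in clone TKO_8.12 and 12.1 to 21.3 CPM in WT. Gpc6, a glypican gene, was at 4.83 CPM in clone TKO_8.4 and 0.975 CPM in clone TKO_8.12 (WT 0.497 to 0.861). Jakmip2 had no count in clone TKO_8.4 and 1.13 CPM in clone TKO_8.12, with 1.41 to 1.87 CPM in WT. In clone TKO_8.12, Fgfbp1, a carrier of fibroblast growth factors, was at 10.1 CPM against 0.673 CPM in clone TKO_8.4, and Slfn9 and Trpm1 were at 0.351 and 0.234 CPM against 2.97 and 2.46 CPM, with both clones below WT.

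Whole chromosomes were shifted in single clones. The median log2 difference from WT was 0.443 on chromosome 6 (400 genes), 0.388 on chromosome 11 (799 genes) and 0.405 on chromosome 12 (327 genes) in clone TKO_8.12, relative to the median of all autosomal genes. In clone TKO_8.4 it was 0.383 on chromosome 19 (322 genes). On chromosome 8 both clones lay above WT, at 0.221 in clone TKO_8.4 and 0.184 in clone TKO_8.12, but the WT clones spanned -0.168 to 0.151 there. All other medians of the TKO clones lay between -0.13 and 0.07. The shifts moved with the calls: 94 of 625 tested genes on chromosome 6, 74 of 1168 on chromosome 11 and 34 of 456 on chromosome 12 were called higher in clone TKO_8.12, and 53 of 473 on chromosome 19 in clone TKO_8.4, beside 3.1% and 2.33% of all genes called higher in those clones. Copy number was not measured, and its part in these shifts was not tested. With the genes of chromosomes 6, 8, 11, 12 and 19 left out before the fit, clone TKO_8.12 had 263 genes higher and 478 lower, clone TKO_8.4 had 227 and 378, and TKO had 107 and 232, with 5 germline and 7 2-cell-like genes lower. Rpl39l, D1Pas1, Sohlh2 and Hsf2bp lie on chromosomes 16, 1, 3 and 17 of mm9, and Rpl10l on chromosome 12. Among the 10 genes called higher with the largest changes, Egr4 lies on chromosome 6, Bcl11a and Gfap on 11 and Ngb on 12. Among the 10 called lower Rgs9 lies on 11. Exoc3l4 and Zscan4a, also among these genes, were not placed.

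**Figure D4:**
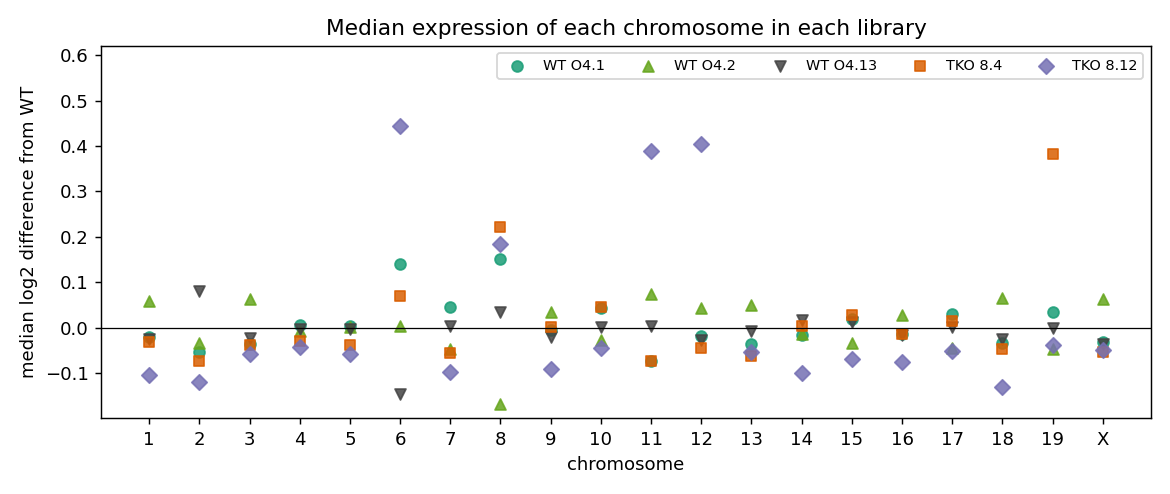
Median over genes of the log2 difference from WT (y axis) for each autosome and X (x axis), with 1 point per D0 library. Each WT library is set against the mean of the other 2, and the points of clone TKO_8.12 on chromosomes 6, 11 and 12 (0.388 to 0.443) and of clone TKO_8.4 on chromosome 19 (0.383) stand apart.

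The TKO clones were also set against the genotypes that share part of their edits. Against the 2 DKO clones, which lack the Tet3 edit, 34 genes were higher in TKO (0.235%) and 98 lower (0.678%). DESeq2 called 104 and 157, and the counts were 278 and 346 without TKO_8.4 and 462 and 444 without TKO_8.12, but 2 and 22 without DKO_5.11 and 4 and 37 without DKO_5.12. Against the 2 Tet2-/- clones, 301 were higher (2.08%) and 305 lower (2.11%), and the counts were 960 and 975 without TKO_8.4, 53 and 105 without Tet2-/-_3.10 and 36 and 105 without Tet2-/-_3.11. Both TKO libraries lay below all 10 other D0 libraries at 748 of 14456 genes (5.17%), and at 169 of the 306 genes called lower against WT, a choice that had already placed them below the 3 WT libraries. Rpl39l was at 107 and 81.8 CPM in the DKO clones and 51.6 and 47.0 CPM in the Tet2-/- clones, and TKO was lower than either (log2 differences -3.26 ± 0.43, adjusted p = 0.0038, and -2.32 ± 0.42, adjusted p = 0.0079), though the call against Tet2-/- was lost without Tet2-/-_3.10 (adjusted p = 0.0505). D1Pas1 was at 66.4 and 52.97 CPM in DKO and 27.5 and 24.9 CPM in Tet2-/-, again above both TKO clones and past the test. For Rpl10l the DKO clones held 176 and 157 CPM and differed from TKO (log2 difference -2.17 ± 0.29, adjusted p = 0.0038), whereas the Tet2-/- clones, at 43.7 and 49.7 CPM, gave a log2 difference of -0.34 ± 0.28 (adjusted p = 0.43), which was called without TKO_8.12 (-1.03, adjusted p = 0.0051). Dnmt3l was at 195 and 198 CPM in DKO and 229.7 and 272.5 CPM in Tet2-/-. It was lower in TKO than in Tet2-/- by 1.20 on the log2 scale (adjusted p = 0.00026), and the difference from DKO (-0.84 ± 0.12, adjusted p = 0.0039) was under 2-fold. Epha4 was at 59.7 and 61.3 CPM in DKO and 58.0 and 49.1 CPM in Tet2-/-, near WT, and TKO was higher than both (log2 differences 1.76 and 1.94). Tet2 itself was at 52.3 and 21.0 CPM in DKO, with a log2 difference of -0.61 ± 0.53 from TKO (adjusted p = 0.56).

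After 6 days without LIF, the order of many of these genes had changed. The D6 libraries are separate samples. The labels give the TKO and WT clones the same names at both days, while Tet1-/- clone 2.2 stands at D6 in place of 2.3 and the label of one DKO clone lacks the point in its number. At D6 edgeR called no gene of 15435 higher or lower (0% each way), while 505 and 498 genes passed 2-fold with an unadjusted p under 0.05, DESeq2 called 181 higher and 300 lower, and without WT O4.2, which carries replicate number 1 at this day, edgeR called 376 and 345. Without TKO_8.4 it called 140 and 126. Of the 306 genes called lower at D0, 283 were tested at D6 and 175 of those had a positive log2 fold change (median 0.29, all genes 0.02). The change in the TKO effect between days was tested in a joint fit of the 24 libraries, chosen after the D0 data were seen. That fit held no term for clone and took the days as independent, although TKO and WT clone names repeat. In it 288 of 15639 genes had a higher effect at D6 (1.84%) and 272 a lower one (1.74%). That difference includes the D0 contrast used for the calls, so the D6 levels, scaled apart from those of D0, are given beside it. Of 30 germline genes tested at D6, 29 had a positive log2 fold change, and in 22 (73.3%) both TKO clones lay above all WT clones, beside 17.6% of all genes. The effect was higher at D6 in 14 of the 30. Other lists were also off balance at D6, and their part in the germline levels was not tested. Of these, 21 of 26 naive pluripotency genes had a positive log2 fold change (median 0.68, 38.5% with both TKO clones above WT), while 14 of 18 mesoderm genes (median -1.21) and 14 of 17 endoderm genes (median -0.89) had a negative one, with 9 of each list below all WT clones (50% and 52.9%, beside 18.7% of all genes). Piwil2 was at 18.5 and 13.9 CPM in the TKO clones at D6 and 3.01, 7.28 and 3.49 CPM in WT, where it had been lower in TKO at D0 (difference between days 2.89 ± 0.45 in log2, adjusted p = 0.0037). Dazl was at 14.5 and 19.9 CPM against 1.51, 9.62 and 2.21 CPM at D6. Rpl10l was at 28.5 and 9.84 CPM against 2.53, 7.63 and 3.66 CPM. The WT levels of these genes were lower at D6 than at D0, and those of Dazl and Piwil2 in TKO were not. Rpl39l overlapped between groups at D6, at 19.6 and 4.201 CPM in TKO and 6.45, 17.0 and 7.21 CPM in WT.

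Dnmt3l followed the same order. It was at 189.6 and 139.5 CPM in TKO and 49.5, 67.6 and 61.1 CPM in WT at D6 (log2 fold change 1.47, adjusted p = 0.091), and the effect differed between days by 2.59 ± 0.48 (adjusted p = 0.0067). Gata6 was at 3.92 and 5.58 CPM in TKO and 63.2, 17.6 and 49.4 CPM in WT at D6. At D0 it was not called in TKO (log2 fold change 1.73, adjusted p = 0.17), where clone TKO_8.12 lay above WT and clone TKO_8.4 below it, and without TKO_8.12 the D0 value was -1.42. Epha4 overlapped between groups at D6, at 56.4 and 70.2 CPM against 68.0, 48.6 and 63.7 CPM. H19 kept its direction, at 14.3 and 25.3 CPM against 61.02, 53.8 and 142 CPM.

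**Figure D5:**
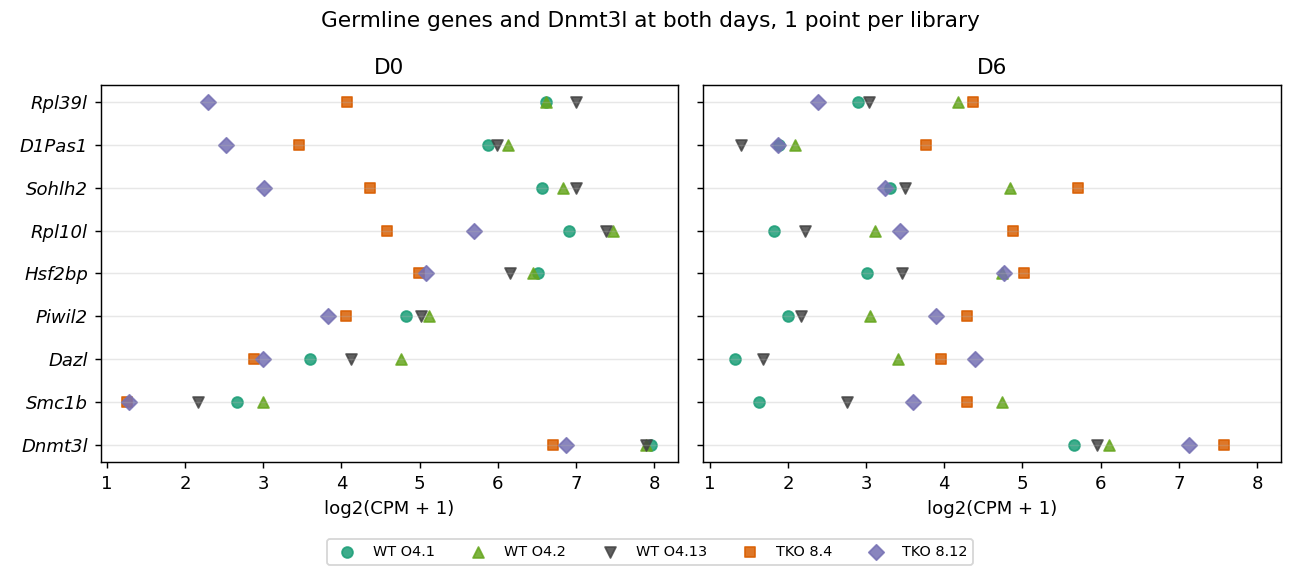
Level on the log2(CPM + 1) scale (x axis) of 8 germline genes and Dnmt3l at D0 (left) and D6 (right), with 1 point per library. Of the 8, D1Pas1 and Sohlh2 are not members of the germline list. At D0 both TKO clones lie below all WT clones at each gene, as at all 306 genes called lower, from which these were taken. At D6 both lie above WT at Rpl10l, Hsf2bp, Piwil2, Dazl and Dnmt3l.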

How the data were processed

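RNA-seq was done on poly(A) RNA with a kit that does not mark strand, with paired-end reads. Per the submitters' processing notes, the authors aligned reads to mm9 with STAR 2.5.1 and deposited raw read counts per gene line for each day. Strand use in counting is not given in the sources used here. Counts are whole numbers, not normalized. Each D0 table had 31928 lines for 22926 symbols; where a symbol had several lines the topmost one was kept. Library totals of the 5 libraries were 24045585 to 26348388, so 3 counts equal about 0.12 CPM; this covers counting error only. Spike-in lines were not used here.

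Counts were tested in R 4.3.3 with edgeR 4.0.16 (filterByExpr with a minimum count of 10, TMM, glmQLFit and glmQLFTest), over the 12 D0 libraries grouped by genotype, then with each TKO clone as its own group. DESeq2 1.42.0 and other scalings, filters and samples were alternatives. Replicate numbers are shared between groups but do not pair clones. The median log2 fold change of all genes was 0.0214 with TMM and -0.0292 with library totals. Fits were tested on simulated data.

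Named genes were the Tet genes and factors the study follows, the 10 genes called in each direction with the largest changes (mean of at least 1 CPM in WT or TKO, both TKO clones outside the WT range), 5 per direction that set each clone apart, called list members, and the 2 members of smallest p of short lists. Members and lists were chosen with earlier results of these data known. Sequences came from the study's allele table, mm9 with GENCODE vM1, and RefSeq. Chromosomes were taken from GENCODE for 20419 symbols; chromosome medians used genes of at least 5 CPM and a pseudocount of 1.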

Additional observations from a re-analysis of the deposited data

Results flagged for a closer look

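The effect of TKO against WT differed between D6 and D0 at 33 of the genes named here, by edgeR's test in the joint fit of the 24 libraries. Each value below is the log2 effect at D6 minus that at D0, and includes the D0 contrast that chose most of these genes. No group held 4 or more samples, so no sample was tested as lying far from its group.

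In the germline list the differences were Rpl39l 3.67, Rpl10l 4.1, Dazl 3.35, Piwil2 2.89 and Hsf2bp 2.36. Other genes called lower at D0 gave D1Pas1 4.72, Sohlh2 4, Pdcl2 3.32, Pkhd1 4.11, Rgs9 3.08, Igfbp7 3.05, Slfn9 4.28, Dnmt3l 2.59 and Rhox13 2.7. The 2-cell-like genes had low counts, and those of the Zscan4 and Usp17l families are near-identical copies. Their differences were Zscan4a 6.13, Zscan4c 5.68, Zscan4d 5.81, Usp17la 5.49, Usp17lb 5.32, Usp17le 4.88, Gm8300 5.85 and Tmem92 5.53. EdgeR called no gene at D6. All 8 were higher in clone TKO_8.4 than in clone TKO_8.12 at that day. Zscan4d was at 1.96 CPM in clone TKO_8.4 and 0.213 CPM in clone TKO_8.12. Usp17lb was at 2.46 and 0.106 CPM in these clones, and Usp17le at 3.19 and 0.213 CPM. WT was at or under 0.269 CPM at these 3 genes. For Zscan4b and Usp17lc, which had no count in either TKO library at D0, the fitted differences of 7.83 and 8.48 depend on the prior count of the fit and are no bounds.

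The effect was lower at D6 for the endoderm genes Gata6 -4.95 and Col4a2 -1.89, for the signalling and streak genes Foxh1 -1.76, Eomes -2.8 and Apcdd1 -3.16, and for Bcl11a -3.99, Cd200 -2.27, Exoc3l4 -3.49 and Gpc6 -2.94. Causes of these differences were not tested.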

How the results depend on the processing

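Restricting the fit to the 5 TKO and WT D0 libraries left 1 gene called higher and 2 lower in TKO, 0 of the 2-cell-like list and 0 of the germline list; in it TKO_8.4 had 292 genes lower, 2 of them 2-cell-like. Leaving out 1 library at a time gave 58 to 459 higher and 168 to 688 lower in TKO, 2 to 11 2-cell-like genes lower and 6 to 12 germline genes lower; for TKO_8.4 alone 2 to 11 2-cell-like genes were lower. Against DKO that range was 2 to 462 higher and 22 to 444 lower, against Tet2-/- 36 to 960 and 105 to 975 (the DKO and Tet2-/- clones were left out after seeing the data), and at D6 0 to 376 and 0 to 345. DESeq2 called 104 genes higher and 157 lower against DKO, and 181 and 300 at D6. With no filter on low counts 80 genes were higher against DKO, and 37 higher and 56 lower at D6. Without chromosomes 6, 8, 11, 12 and 19, chosen after seeing the data, 17 genes were higher against DKO, 227 in TKO_8.4 and 263 in TKO_8.12, 4 2-cell-like genes were lower in TKO_8.4, and TKO_8.12 had 340 higher and 467 lower than TKO_8.4; fewer genes were tested there. The cause of the other changes was not tested.

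The replicate numbers shared by the genotypes name clones and pair none. With the replicate block 117 genes were higher and 275 lower in TKO, 6 of them 2-cell-like. The deviations of libraries with the same number correlated at 0.352 and 0.215.

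Signs turned for some named genes in TKO, none of them called there except Fgfbp1. Leaving out 1 library at a time, the log2 fold change ran from -1.009 to 3.418 for Cubn, -0.3225 to 3.574 for Fgfbp1, -1.419 to 2.645 for Gata6, -0.3035 to 1.372 for Pcdhb17 and -0.3962 to 3.522 for Slc6a14, each lowest without TKO_8.12. It ran from -3.029 to 0.7421 for Tet1, -5.856 to 1.252 for Ndufa4l2 (-0.7914 with the replicate block), -0.08533 to 0.7512 for Pdk1, -3.836 to 0.8917 for Rhox6 (0.01859 without the 5 chromosomes) and -0.09159 to 0.08727 for Sall4. Sall4 was also -0.001259 with DESeq2 size factors, -0.001562 with DESeq2, -0.05109 with library totals and -0.008028 in the 5 libraries. By clone, the range was -0.2466 to 0.006649 for Rhox10 in TKO_8.12, and -0.8319 to 0.2629 for Slc6a14 and -0.1904 to 0.2048 for Vim in TKO_8.4.

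Of 54 named genes called in TKO, 25 kept the call under every alternative but the fit of the 5 libraries, and 1, Pdcl2, was called there.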
